A study of Mus musculus with 18 samples.

Results

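Slc16a12, C1ql4, Itih5 and A3galt2 are 4 genes, of 17198 measured, whose RNA lost most of its 12 h level within the next 12 h in cultured neurons of the mouse dorsal root ganglion (DRG). They were picked by symbol from genes seen to fall strongly from 12 to 24 h outside the Mrgpr receptors and the calcium channels. Slc16a12 fell most of all genes in each genotype, while other genes fell as far as C1ql4, Itih5 and A3galt2. The choice therefore rests on the 12 and 24 h samples, and the early fall is described below without a test. The 48 h samples did not enter the choice. All 4 genes were below their 12 h means at 48 h, and at that time each was higher in every heterozygous culture than in every wild-type culture, as were 9.57% of all genes. None of the 4 passed the adjusted threshold there in the fit without a replicate block (limma adjusted p from 0.0502 to 0.0677). In that fit 0 of 17198 genes were called. With the block 4 of 4 passed, where 4.34% of all genes were called higher and 6.07% lower. The labels do not say what a replicate number stands for, and over all times the numbers do not pair wild-type and heterozygous samples. The blocked fit is given for 48 h by a reading made after both fits had been seen.

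DRG neurons are the sensory neurons whose cell bodies lie beside the spinal cord. The cultures came from mice with 2 intact copies of Dynlrb1, labelled Wild type (WT), and from mice labelled Dynlrb1(tm1a/+), heterozygous (HET) for the tm1a allele. Dynlrb1 encodes a subunit of the cytoplasmic dynein motor, which moves cargo toward the cell body, and a tm1a allele is a knockout-first insertion carried here in every cell, the cultured non-neuronal cells included. Total RNA was collected at 12, 24 and 48 h in culture, with 3 biological replicates for each genotype and time, 18 samples in all. Age, sex and any treatment are not given in the labels, and no agent is named for any group.

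The 4 genes have unrelated roles. Slc16a12 encodes a plasma membrane transporter of the monocarboxylate transporter family that carries creatine, the compound cells use to buffer their energy supply. C1ql4 encodes a small secreted protein with a C1q domain, a relative of the cerebellins, which act as adhesion and signalling molecules at synapses, and it binds the adhesion receptor encoded by Adgrb3. Itih5 encodes a heavy chain of the inter-alpha-trypsin inhibitor family, secreted proteins that bind hyaluronan in the extracellular matrix. A3galt2 encodes an alpha-galactosyltransferase that makes the glycosphingolipid isoglobotriaosylceramide. When DRG neurons are dissociated their axons are cut, and transcripts typical of mature sensory neurons commonly decline in culture while others rise.

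Values are the authors' normalized counts unless a sentence says otherwise, and a log2 fold change is a difference between group means of log2(normalized count + 1) from limma, given with its standard error (SE). Targeting was checked first: Dynlrb1 ranged from 2716 to 4087 normalized counts in the 9 HET cultures and from 5229 to 6674 in the 9 WT cultures, with no overlap. Replicates of a group correlated at 0.978 to 0.992 over genes. Sequencing depth is unknown, because every column was scaled to nearly the same total, 41509705 to 41509874. All 9 pan-neuronal markers were present, with summed counts between 314251 and 422591 in the 18 samples. One library stood apart: HET replicate 3 at 48 h had a loading of −0.0911 on the first principal component (43.5% of variance), near the 24 h samples, while the other 48 h samples lay between 0.161 and 0.502. The limma differences of the 4 genes and the list medians that use the HET cultures at 48 h are therefore also given without it.

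Among genes that passed a limma adjusted p of 0.05, had a mean of at least 1 CPM and did not overlap between times, 111 fell in WT and 888 in HET from 12 to 24 h. Slc16a12 stood first in both genotypes. In WT the next places went to C1ql4, Selp, the calcium channel gene Cacna1i and Itih5. Itih5, the last of these at −1.41, was followed by Rnf112 at −1.32, just outside. In HET the places after Slc16a12 went to Mrgprb4, Mrgpra3, Mrgprx1 and A3galt2 (−2.71), with Paqr5 (−2.43) just outside. C1ql4 (−1.95) and Itih5 (−1.79) stood far lower in HET, at places 18 and 28 of the 888, behind genes such as Otoa, Ms4a3, Chrna6 and Hal. A3galt2 has no place in WT, because its cultures overlapped between times and its fall did not pass the limma adjusted p of 0.05 used for this ranking. In the authors' deposited table the edgeR adjusted p of that fall was 0.0455. Selp, which encodes the adhesion molecule P-selectin, ranked above Itih5 in WT but is not one of the 4 genes. These ranks and adjusted p-values use the values that chose the genes and support nothing further.

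Slc16a12 (ENSMUSG00000009378) lies on the minus strand at chr19:34668403-34747289 of mm10 and overlaps 1 other annotated gene, AC016791.1. Where their exons overlap, reads could be counted for the wrong gene, which was not checked. In WT the normalized counts of Slc16a12 were 645, 1020.4 and 966 at 12 h (replicates 1, 2 and 5), 177, 156 and 285 at 24 h, and 209, 60.2 and 292 at 48 h (replicates 1, 2 and 3). In HET they were 1227, 2387 and 1304 at 12 h, 86.7, 189 and 128 at 24 h, and 1094, 544 and 853 at 48 h. Every 12 h culture was above every 24 h culture in both genotypes, and the HET cultures at 48 h overlapped the WT cultures at 12 h. The mean at 24 h was 23.5% of the 12 h mean in WT and 8.20% in HET, and the log2 fold change from 12 to 24 h was −2.11 in WT and −3.60 in HET (SE 0.46 for each). Because these are whole cultures, fewer cells of one type and less RNA per cell cannot be told apart.

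C1ql4 (ENSMUSG00000001076) is a compact gene of 2 exons on the minus strand at chr15:99084086-99087817. WT cultures held 154, 116 and 144 normalized counts at 12 h, 20.6, 48.7 and 73.4 at 24 h, and 43.7, 15.97 and 43.5 at 48 h. HET cultures held 167, 228 and 166 at 12 h, 30.2, 67.5 and 50.7 at 24 h, and 116, 86.3 and 77.4 at 48 h. The 12 and 24 h cultures did not overlap in either genotype, and the WT cultures at 24 and 48 h shared 1 low range. At 24 h the mean was 34.4% of its 12 h level in WT and 26.5% in HET, log2 fold changes of −1.68 and −1.95 (SE 0.42 for each). It was the least abundant of the 4 by normalized count.

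Itih5 (ENSMUSG00000025780) is on the plus strand at chr2:10153571-10256529. Its normalized counts in WT were 700.3, 831 and 671 at 12 h, 256, 371 and 219 at 24 h, and 109, 38.3 and 97.5 at 48 h. In HET it had 715, 657 and 653 at 12 h, 143, 263 and 193 at 24 h, and 151, 179 and 348 at 48 h. The fall continued in WT, where every 48 h culture was below every 24 h culture, while the 24 and 48 h HET cultures overlapped. Its 24 h mean was 38.4% of the 12 h mean in WT and 29.6% in HET, and the log2 fold changes were −1.41 and −1.79 (SE 0.35 for each). Replicates of Itih5 at 12 h were the closest of the 4 genes, with a coefficient of variation of 11.6% in WT and 5.20% in HET.

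A3galt2 (ENSMUSG00000028794) is on the plus strand at chr4:128755364-128769298. In WT it had 278, 581 and 889.9 normalized counts at 12 h, 156, 88.4 and 289 at 24 h, and 87.8, 33.2 and 103 at 48 h. In HET it had 459, 2050.3 and 903 at 12 h, 55.3, 290.2 and 183 at 24 h, and 294, 294 and 575 at 48 h. This was the most variable of the 4 at 12 h, with a coefficient of variation of 52.5% in WT and 72.2% in HET, and WT replicate 1 at 12 h was below WT replicate 5 at 24 h, so those groups overlapped. The 24 h mean was 30.5% of the 12 h mean in WT and 15.5% in HET. The log2 fold change from 12 to 24 h was −1.72 in WT and −2.71 in HET (SE 0.65 for each).

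**Figure D1:**
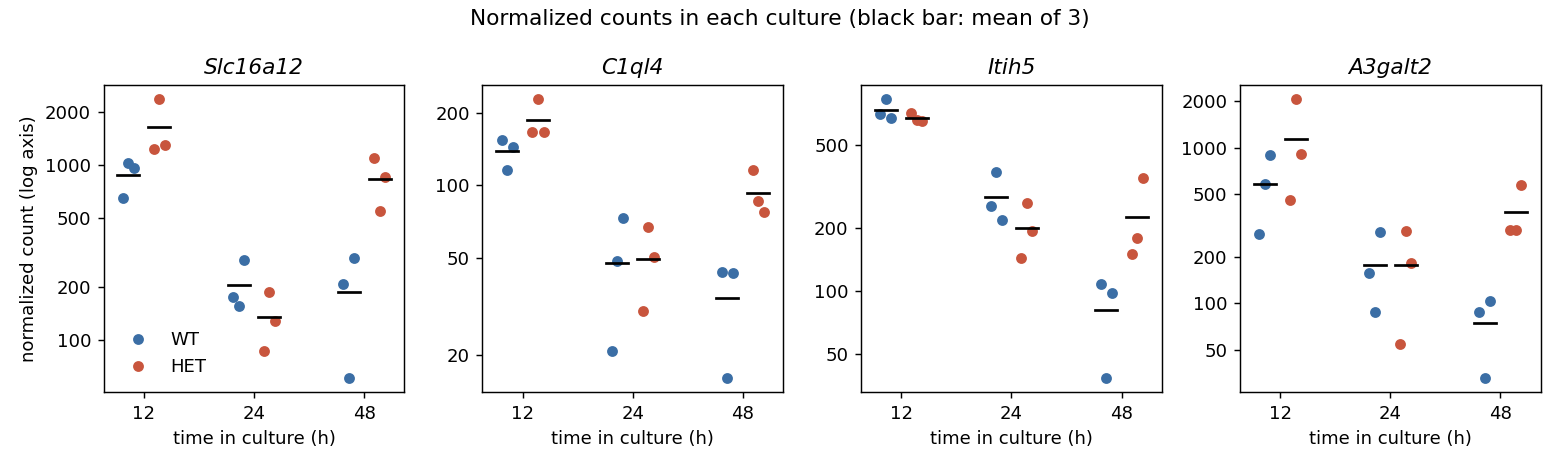
Normalized counts (log axis) of Slc16a12, C1ql4, Itih5 and A3galt2 in each culture at 12, 24 and 48 h; blue points are WT, red points are HET and each black bar is the mean of 3 cultures. All 4 genes drop from 12 to 24 h in both genotypes, and at 48 h the 3 red points lie above the 3 blue points in every panel, for example 544 to 1094 against 60.2 to 292 for Slc16a12.

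Cultures from 12 to 24 h did not overlap for 3 of the 4 genes in WT, where 8.94% of all genes were lower without overlap, and for 4 of 4 in HET, where 13% were. Since this contrast chose the genes, the counts are given only beside that background. The sizes of the fall differed among the 4: in HET, Slc16a12 was lower by 12.1-fold on the log2(normalized count + 1) scale, A3galt2 by 6.56-fold, C1ql4 by 3.87-fold and Itih5 by 3.46-fold. In WT the same falls were 4.30-fold, 3.29-fold, 3.21-fold and 2.65-fold.

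Levels can be compared between genes only per length, and for that the authors' FPKM values were used. At 12 h in WT, Slc16a12 had the highest mean FPKM, 5.46 ± 1.26 (SD, n = 3), followed by C1ql4 at 4.64 ± 0.669, A3galt2 at 4.14 ± 2.18 and Itih5 at 2.23 ± 0.260. The first 3 overlapped between replicates. By 48 h in WT the means were 1.17 ± 0.732 for Slc16a12, 1.16 ± 0.537 for C1ql4, 0.531 ± 0.262 for A3galt2 and 0.248 ± 0.115 for Itih5. At 48 h in HET they were 5.17 ± 1.72, 3.13 ± 0.670, 2.75 ± 1.15 and 0.687 ± 0.323 in the same gene order, so Itih5 was the lowest per length in these 3 groups.

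Ordered by mean, Slc16a12 was highest in HET at 12 h (1639 normalized counts), then in WT at 12 h (877) and HET at 48 h (830.3), which overlapped, and then in WT at 24 h (206), WT at 48 h (187) and HET at 24 h (134), each overlapping its neighbour. C1ql4 followed nearly the same order, with HET at 12 h (187), WT at 12 h (138) and HET at 48 h (93.1) each separate from the next group down, and the groups from HET at 24 h (49.4) to WT at 48 h (34.4) overlapping. For A3galt2 the order began HET at 12 h (1137), WT at 12 h (583) and HET at 48 h (388), with overlap between neighbours, and ended with WT at 48 h (74.8). Itih5 differed: WT at 12 h (734) and HET at 12 h (675) overlapped at the top, WT at 24 h (282), HET at 48 h (226) and HET at 24 h (200) overlapped in the middle, and WT at 48 h (81.5) lay apart at the bottom.

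The later window, from 24 to 48 h, shares its 24 h samples with the choice of the genes, so the p-values of the 4 genes in it are not independent of that choice. In WT, Itih5 fell further, from 282 ± 79.4 to 81.5 ± 37.8 normalized counts (SD, n = 3), which is −1.88 on the log2 scale (SE 0.35) with a limma adjusted p of 0.00343. Itih5 was thus the single gene of the 4 that passed the threshold of 0.05 in WT, where 10.3% of all 17198 genes were called lower and 18.4% were lower without overlap. A3galt2 changed by −1.23 (SE 0.65, limma adjusted p = 0.163), C1ql4 by −0.41 (SE 0.42, limma adjusted p = 0.488) and Slc16a12 by −0.36 (SE 0.46, limma adjusted p = 0.585). The last 2 values rest on WT replicate 2 at 48 h, the lowest of the 3 cultures for each of the 4 genes: without it they were 0.05 for C1ql4 and 0.31 for Slc16a12.

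In HET, Slc16a12 rose from 134 ± 51.3 normalized counts at 24 h to 830.3 ± 276 at 48 h (SD, n = 3), which is 2.63 on the log2 scale (SE 0.46) with a limma adjusted p of 0.0198. It was the single gene of the 4 called, against 1.42% of all genes called higher. A choice by large early falls favours low 24 h values, and so a rise after them. The call is therefore a description and gives no independent support. The other values were 1.35 for A3galt2 (SE 0.65, limma adjusted p = 0.265), 0.95 for C1ql4 (SE 0.42, limma adjusted p = 0.231) and 0.12 for Itih5 (SE 0.35, limma adjusted p = 0.887). HET cultures at 48 h were all above those at 24 h for Slc16a12, C1ql4 and A3galt2, 3 of 4 genes, where 10.2% of all genes were higher without overlap.

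The call of Slc16a12 depended on single libraries. Without HET replicate 1, 2 or 5 at 24 h its limma adjusted p was 0.0732, 0.0467 and 0.0603, and without HET replicate 1, 2 or 3 at 48 h it was 0.153, 0.0766 and 0.00358. The fold change stayed between 2.35 and 2.91 in these 6 fits. Without the library that stood apart, HET replicate 3 at 48 h, the values were 2.58 for Slc16a12, 1.07 for C1ql4, −0.23 for Itih5 and 1.03 for A3galt2.

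At 48 h, whose samples did not enter the choice, all 4 genes had higher means in HET than in WT. Slc16a12 averaged 830.3 ± 276 normalized counts in HET and 187 ± 118 in WT (SD, n = 3), a log2 fold change of 2.36 (SE 0.46, 95% interval 1.39 to 3.33). A3galt2 averaged 388 ± 162 in HET and 74.8 ± 36.9 in WT, a log2 fold change of 2.44 (SE 0.65, 1.07 to 3.8). These 2 genes, the transporter and the glycosyltransferase, had the larger differences. C1ql4 averaged 93.1 ± 19.9 in HET and 34.4 ± 15.97 in WT, a log2 fold change of 1.52 (SE 0.42, 0.62 to 2.42). Itih5 averaged 226 ± 106 in HET and 81.5 ± 37.8 in WT, a log2 fold change of 1.5 (SE 0.35, 0.76 to 2.24).

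None of the 4 passed the adjusted threshold in this fit: the limma adjusted p was 0.0502 for Slc16a12, 0.0522 for Itih5, 0.0604 for A3galt2 and 0.0677 for C1ql4. No gene in the table passed it either (0% of 17198 called), although 3782 genes had an unadjusted limma p under 0.05, 8.72% of all genes being higher in HET and 13.3% lower. The 4 genes were among those higher at the unadjusted level, with p from 8.73e-05 for Slc16a12 to 0.00231 for C1ql4. All 3 HET cultures were above all 3 WT cultures for 4 of 4 genes, where 9.57% of all genes were higher without overlap. An exact two-sided permutation test of each gene gave p = 0.1, the smallest that 3 against 3 cultures allow. The median log2 fold change was 1.94 over the 4 genes and −0.03 over all genes.

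The call differed once the replicate number entered the model, as an effect of each number shared by all times. In that blocked fit, the limma adjusted p was 0.00663 for Slc16a12, 0.00930 for Itih5, 0.0159 for A3galt2 and 0.0395 for C1ql4, so 4 of 4 passed, where 4.34% of all genes were called higher. Log2 fold changes were the same in both fits. The SE went from 0.46 to 0.45 for Slc16a12, 0.35 to 0.31 for Itih5, 0.65 to 0.56 for A3galt2 and 0.42 to 0.44 for C1ql4. The adjustment depends on all genes, of which 1790 were called with the block and 0 without. Same-numbered WT and HET samples deviated together at 48 h, with correlations over genes of 0.321, 0.209 and 0.461 for numbers 1, 2 and 3, but the labels do not say what a number stands for. In the authors' deposited table, the edgeR adjusted p at 48 h was 0.000104 for Slc16a12, 0.00113 for Itih5, 0.00317 for A3galt2 and 0.0116 for C1ql4, beside log2 fold changes of 2.15, 1.47, 2.37 and 1.43.

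Leaving out the library that stood apart, HET replicate 3 at 48 h, gave log2 fold changes of 2.31 for Slc16a12, 1.64 for C1ql4, 1.14 for Itih5 and 2.11 for A3galt2, with limma adjusted p from 0.251 to 0.271. The lowest WT culture mattered more for the size of the difference. Without WT replicate 2 at 48 h the 4 values were 1.69, 1.06, 1.03 and 1.94 in the same order, with limma adjusted p from 0.389 to 0.420. Without WT replicate 3 they were 2.82, 1.75, 1.69 and 2.74, and each passed, with limma adjusted p from 0.0220 to 0.0443. Slc16a12 and Itih5 also passed without HET replicate 1 (limma adjusted p = 0.0400 and 0.0387) and without HET replicate 2 (0.0330 and 0.0441).

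Relative to their own 12 h means, the 48 h means in WT were 21.3% for Slc16a12, 24.9% for C1ql4, 11.1% for Itih5 and 12.8% for A3galt2. The same shares in HET were 50.7%, 49.8%, 33.5% and 34.1%. In each genotype Itih5 and A3galt2 thus kept the smaller shares and Slc16a12 and C1ql4 the larger. Without HET replicate 3 at 48 h the HET shares were 49.9%, 54.0%, 24.5% and 25.9%. No test was made, since the 12 h samples belong to the choice.

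**Figure D2:**
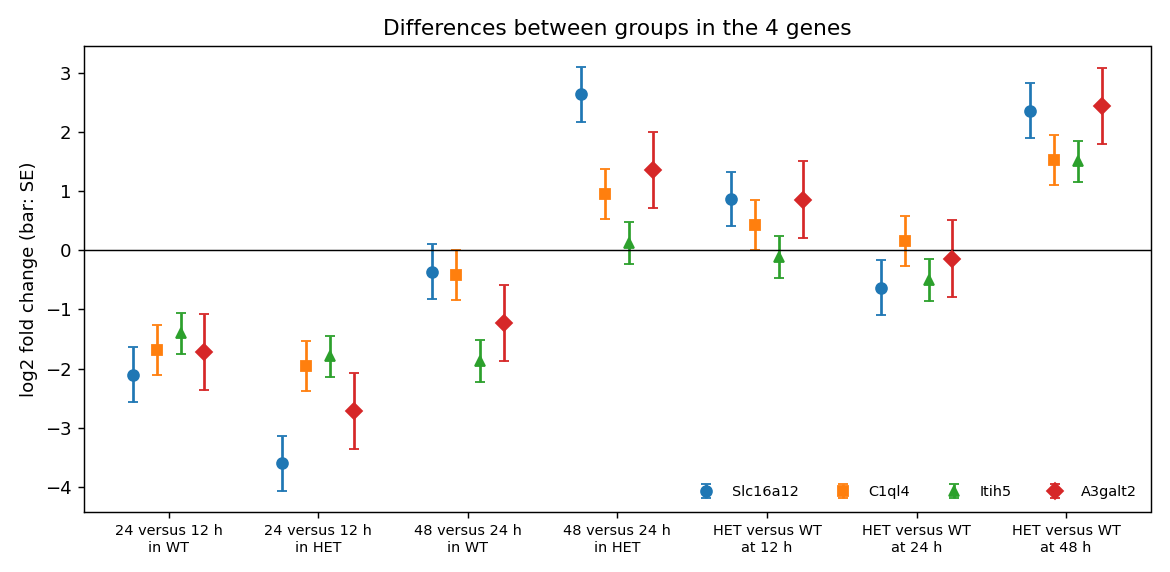
Log2 fold changes between groups (y axis) for Slc16a12, C1ql4, Itih5 and A3galt2 in 7 comparisons along the x axis, with bars of 1 SE; positive values mean higher in the first-named group. The first 2 comparisons chose the genes and are shown as description, the 12 and 24 h genotype differences lie between −0.63 and 0.86, and the 48 h ones between 1.5 and 2.44.

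Genotype differences were smaller in value at the earlier times, whose samples also took part in the choice. At 12 h the log2 fold change of HET over WT was 0.86 for Slc16a12 (SE 0.46), 0.85 for A3galt2 (SE 0.65), 0.43 for C1ql4 (SE 0.42) and −0.12 for Itih5 (SE 0.35), with limma adjusted p from 0.600 to 0.935. None of the 4 was called, where 0.00581% of all genes (1 gene) were called higher, and none had an unadjusted limma p under 0.05, which 8.41% of all genes had. Slc16a12 and C1ql4 were higher in all 3 HET cultures than in all 3 WT cultures at 12 h, a pattern seen in 7.07% of all genes, with an exact permutation p of 0.1 for each.

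At 24 h the log2 fold changes were −0.63 for Slc16a12, −0.50 for Itih5, −0.14 for A3galt2 and 0.15 for C1ql4, each with overlap between genotypes, where 2.81% of all genes were higher and 2.79% lower without overlap. Their limma adjusted p rounded to 1, with 0% of all genes called higher and 0.00581% lower. The 95% interval of the 24 h difference ran from −1.61 to 0.34 for Slc16a12 and from −1.5 to 1.22 for A3galt2. The signs for C1ql4 and A3galt2 turned when single libraries were left out.

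The difference between genotypes in the change from 24 to 48 h contains the 24 h samples of the choice as well and is given as a description, with no test. HET minus WT, it was 2.99 for Slc16a12 (SE 0.65), 2.58 for A3galt2 (SE 0.91), 2.00 for Itih5 (SE 0.50) and 1.37 for C1ql4 (SE 0.60) on the log2 scale. Without HET replicate 3 at 48 h the 4 values were 2.94, 2.26, 1.64 and 1.49 in the same order.

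The promoter windows of the 4 genes, 250 bases before to 50 after the annotated start, were read from RefSeq (GRCm38.p6) because the genes moved together over the samples, and all 4 matched. Bases are printed 5′ to 3′ on the strand of the gene. Each stretch ends before the first base inside the RefSeq gene or an annotated exon, and none of the window of C1ql4 qualified. Capitals mark CACGTG, the palindromic E-box, and GGGCGG, the GC box bound by Sp factors. The Slc16a12 stretch is chr19:34747494-34747578 on the minus strand, the Itih5 stretch chr2:10153293-10153535 on the plus strand, and the A3galt2 stretch chr4:128759008-128759257 on the plus strand, which lies within an intron of a longer annotated transcript.
Slc16a12: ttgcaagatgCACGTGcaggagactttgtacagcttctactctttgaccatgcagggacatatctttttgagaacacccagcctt
Itih5: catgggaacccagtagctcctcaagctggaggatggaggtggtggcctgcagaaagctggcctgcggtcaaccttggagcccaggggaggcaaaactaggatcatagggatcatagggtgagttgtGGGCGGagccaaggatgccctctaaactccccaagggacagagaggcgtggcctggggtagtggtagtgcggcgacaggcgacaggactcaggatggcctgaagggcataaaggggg
A3galt2: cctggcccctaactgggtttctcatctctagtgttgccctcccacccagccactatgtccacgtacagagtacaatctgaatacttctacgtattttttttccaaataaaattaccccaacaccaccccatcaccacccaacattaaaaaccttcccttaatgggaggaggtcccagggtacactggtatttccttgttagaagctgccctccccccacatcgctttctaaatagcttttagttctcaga

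On both strands of the full windows, GGGCGG (or its reverse CCGCCC) was found for Itih5 alone, against 35.7% of the 32851 windows in the table, and CACGTG for Slc16a12 alone, against 7.15%. The AP-1 motif TGANTCA, the CRE motif TGACGTCA, the CCAAT box and the TATAAA box were in none of the 4 windows and in 7.81%, 1.79%, 37.4% and 13.6% of all windows. The windows differed in base composition, with 48.3% G and C for A3galt2, 60% for Slc16a12, 60.7% for Itih5 and 70% for C1ql4, around a median of 52.7% over all windows. The 4 windows thus held no searched motif in common.

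Across the 18 samples the 4 genes rose and fell together. Pearson correlations of log2 values between pairs ran from 0.729, for Slc16a12 with Itih5, to 0.914, for Slc16a12 with C1ql4. After each group mean was subtracted, the correlations of the same samples were 0.395 to 0.793, highest for Slc16a12 with A3galt2. These are descriptions, because the shared early fall chose the genes and all values come from the same libraries.

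The genes most like each of the 4 were ranked by the same correlation over 18 samples among 16135 genes with a mean of at least 10. Slc16a12 was closest to Lpar3 (0.979), which encodes a lysophosphatidic acid receptor, then to Ppp1r1c (0.978), an inhibitor of protein phosphatase, and N28178 (0.974). A3galt2 was closest to Synpr (0.986), a synaptic vesicle protein, Kcnip2 (0.986), a partner subunit of potassium channels, and Rgs8 (0.985), a regulator of G protein signalling. Itih5 was closest to Selp (0.970), L3mbtl1 (0.968) and Etv1 (0.966), the latter encoding a transcription factor. C1ql4 had the loosest neighbours: Lrrtm2 (0.939), a synaptic adhesion protein, Rnf112 (0.937) and Tmem229a (0.937).

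Since the 4 genes were chosen for a large early fall, a smaller one in most neighbours is fixed by that choice, and the values are a description. From 12 to 24 h in HET, the log2 fold change was −1.88 for Lpar3, −1.34 for Ppp1r1c and −1.28 for N28178, against −3.60 for Slc16a12. The neighbours of A3galt2 had −1.70 for Synpr, −1.86 for Kcnip2 and −1.76 for Rgs8, against −2.71. Those of C1ql4 (−1.95) had −1.64 for Lrrtm2, −1.93 for Rnf112 and −0.95 for Tmem229a. In WT, Selp had −1.497 and Itih5 −1.41. The neighbours were ranked over all samples, the 48 h cultures included, so the sign of their 48 h difference is largely fixed as well. At 48 h the HET over WT differences of the 12 neighbours ran from 0.71 for Tmem229a to 1.57 for Kcnip2. They were 1.56 for Lpar3, 0.80 for Ppp1r1c and 0.83 for N28178, the neighbours of Slc16a12, and 1.39 for Synpr and 1.54 for Rgs8 beside A3galt2. The neighbours of Itih5 had 1.07 for Selp, 0.85 for L3mbtl1 and 1.14 for Etv1, and those of C1ql4 0.88 for Lrrtm2 and 1.30 for Rnf112.

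**Figure D3:**
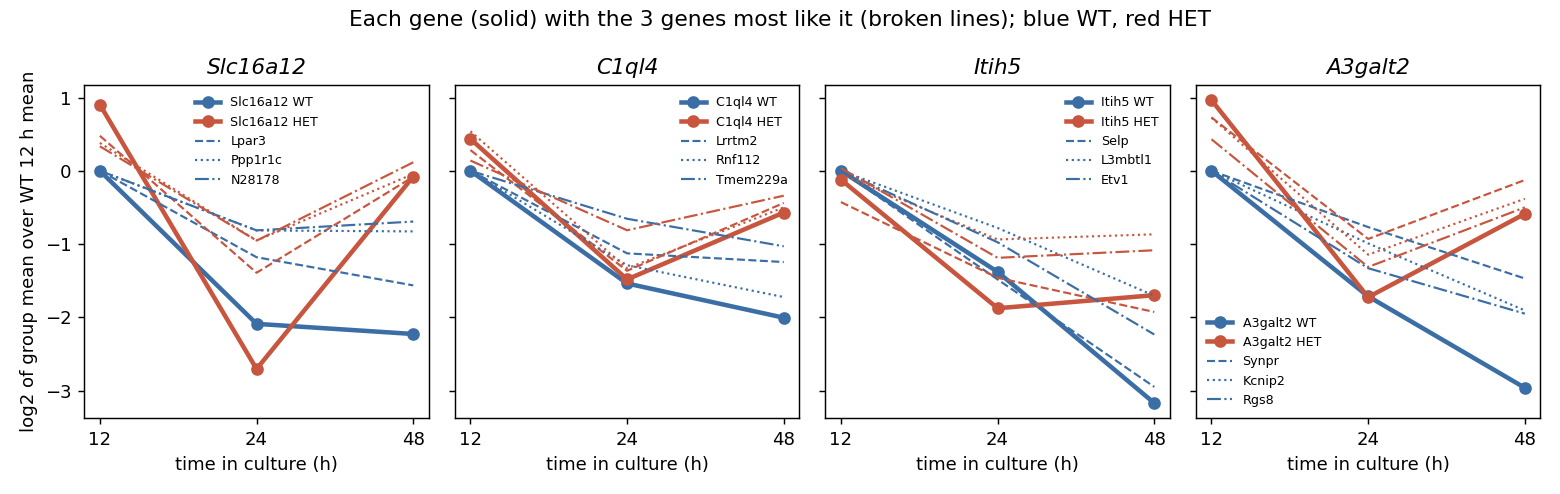
Group means relative to the WT 12 h mean (log2, y axis) at 12, 24 and 48 h for each of the 4 genes (thick lines) and the 3 genes most like it (broken lines), blue for WT and red for HET. The broken red lines turn up after 24 h with Slc16a12, C1ql4 and A3galt2, and the thick red line of Itih5 stays near its 24 h level (200 to 226 normalized counts).

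Relatives of the 4 genes were examined over the same windows. Of the 19 measured genes of the monocarboxylate transporters and creatine handling, none fell from 12 to 24 h in either genotype by limma adjusted p, where 0.657% of all genes were called lower in WT and 5.76% in HET, while 1 in WT and 2 in HET had lower values with an unadjusted p under 0.05, beside 6.83% and 11% of all genes. In HET 2 of them rose, Slc16a13 (0.90, limma adjusted p = 0.0284) and the creatine transporter gene Slc6a8 (0.74, limma adjusted p = 0.0132), against 13.1% of all genes. From 24 to 48 h in WT, 3 rose and 2 fell, beside 17.4% and 10.3% of all genes. In HET no gene of the 4 lists of relatives was called in that window, beside 1.42% of all genes higher and 1.08% lower. Without HET replicate 3 at 48 h, 2, 2, 3 and 5 genes of the transporter, C1q-like, hyaluronan and glycosphingolipid lists were called higher and 1, 1, 1 and 2 lower, beside 8.3% and 6.59% of all genes. In WT from 24 to 48 h, Slc16a3, an exporter of lactate, rose from 273 to 1315 normalized counts (2.21, limma adjusted p = 0.00386). Slc16a1, a lactate and pyruvate carrier, fell there from 15186 to 7169 (−1.08, limma adjusted p = 0.00377). In the same WT window Gamt, the enzyme of the last step of creatine synthesis, fell by 1.01 (limma adjusted p = 0.00560). Slc16a13 rose there by 0.85 (limma adjusted p = 0.0288) and Emb, a chaperone of these transporters, by 0.57 (limma adjusted p = 0.00441).

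C1ql2, the close paralog of C1ql4, ran the other way. Its means in WT were 36.1 normalized counts at 12 h, 101 at 24 h and 327 at 48 h, and in HET 27.5, 129 and 87.6. From 12 to 24 h it rose by 2.21 in HET (limma adjusted p = 0.00406) and changed by 1.62 in WT (limma adjusted p = 0.0553), and from 24 to 48 h it rose by 1.57 in WT (limma adjusted p = 0.0175). At 48 h HET minus WT was −1.83 for C1ql2 (limma adjusted p = 0.0550, or 0.0127 under the block), the opposite sign to C1ql4. C1ql3, the other measured paralog, had −0.19 at 48 h (limma adjusted p = 0.684). Of the 16 measured genes of this family and its binding partners, Cbln2, a cerebellin, was the other one that rose from 24 to 48 h in WT (0.89, limma adjusted p = 0.0151), so 2 of 16 rose beside 17.4% of all genes. From 12 to 24 h, 1 of the 16 was called higher and 1 lower in HET, beside 13.1% and 5.76% of all genes, and 0 in WT.

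Among 26 measured genes of the inter-alpha-trypsin inhibitor family and hyaluronan metabolism, 7 rose and 6 fell from 24 to 48 h in WT, beside 17.4% and 10.3% of all genes. From 12 to 24 h, 1 rose and 1 fell in WT, beside 2.96% and 0.657% of all genes, and 2 rose and 1 fell in HET, beside 13.1% and 5.76%. From 24 to 48 h in WT, Hmmr, a hyaluronan receptor that also acts in the mitotic spindle, rose by 2.46 (limma adjusted p = 0.00343). Has2, a hyaluronan synthase, rose there by 1.37 (limma adjusted p = 0.0120). In the same WT window Ptx3, a pentraxin that binds inter-alpha-trypsin inhibitor heavy chains, fell by 1.54 (limma adjusted p = 0.00864). Bcan, a hyaluronan-binding proteoglycan of neural tissue, fell there by 1.41 (limma adjusted p = 0.00343). The other family members measured were scarce, with means over all samples of 28.0 normalized counts for Itih2, 24.9 for Itih4, 14.003 for Itih3 and 7.96 for Itih1, and none of these passed in any tested contrast.

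Of 22 measured genes of the A3galt2 family and glycosphingolipid synthesis, 3 rose and 1 fell from 24 to 48 h in WT, shares below the 17.4% and 10.3% of all genes. St6galnac5, a sialyltransferase of gangliosides, rose from 103 to 487 normalized counts (2.32, limma adjusted p = 0.00843), Gal3st1, which makes sulfatide, rose by 1.24 (limma adjusted p = 0.0101), and A4galt, which makes globotriaosylceramide, rose by 1.03 (limma adjusted p = 0.00343). Ggta1, the relative of A3galt2 that adds the same alpha-linked galactose to glycoproteins, fell from 4914 to 2093 (−1.23, limma adjusted p = 0.00398). From 12 to 24 h, 3 of the 22 fell in HET, beside 5.76% of all genes: St8sia1 (−0.75, limma adjusted p = 0.0420), a ganglioside sialyltransferase, St8sia3 (−0.39, limma adjusted p = 0.0413) and B4galt5 (−0.33, limma adjusted p = 0.0217). In WT St8sia1 fell (−0.99, limma adjusted p = 0.0387) and Ugcg, the glucosylceramide synthase, rose (0.49, limma adjusted p = 0.0450), while Ggta1 had a value of 0.56 (limma adjusted p = 0.199).

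Between genotypes no gene of these 4 lists passed at 12, 24 or 48 h by limma adjusted p. At 48 h, 1 of 19 transporter genes, 0 of 16 C1q-like genes, 3 of 26 hyaluronan genes and 3 of 22 glycosphingolipid genes had an unadjusted p under 0.05 and a higher value in HET, and 3, 4, 3 and 2 a lower one, beside 8.72% and 13.3% of all genes. Leaving out HET replicate 3, these counts were 0, 0, 1 and 2 higher and 1, 3, 2 and 0 lower, beside 4.95% and 6.54% of all genes. At 12 h these counts were at most 1 higher and 3 lower in a list, and at 24 h 0 higher and at most 1 lower. With the replicate block, 1, 0, 1 and 1 were called higher and 2, 4, 3 and 2 lower, beside 4.34% and 6.07% of all genes. The list medians at 48 h were −0.03, −0.05, −0.03 and 0.06, close to the −0.03 of all genes, and without HET replicate 3 they were 0.00038, 0.04, −0.02 and 0.10 beside −0.02.

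Markers of non-peptidergic nociceptors, the small unmyelinated pain and itch neurons, moved with the 4 genes. Their 12 listed genes, which include the neighbour Lpar3, had 9 called lower from 12 to 24 h in HET and 1, Lpar3, in WT by limma adjusted p, beside 5.76% and 0.657% of all genes. In the same window in HET, 4 of 9 pan-neuronal, 3 of 12 satellite glia and Schwann cell, 2 of 8 peptidergic and 1 of 11 A-fibre markers were also called lower, and 0 of the fibroblast, endothelial, macrophage and blood cell markers. Of the 12 non-peptidergic markers, 12 were higher in HET than in WT at 12 h (median 0.48) and 0 at 24 h (median −0.11). None was called by limma adjusted p at either time, beside at most 0.00581% of all genes in either direction. From 24 to 48 h in HET 10 of 12 rose (median 0.30), or 7 of 12 without HET replicate 3 at 48 h (median 0.17). At 48 h 12 of 12 had higher means in HET than in WT, with a median log2 fold change of 0.99. None of them passed there by limma adjusted p, 9 had an unadjusted p under 0.05, beside 8.72% of all genes, and 7 passed with the replicate block, beside 4.34%. With HET replicate 3 left out, 11 of 12 were higher with a median of 0.89, and 9 had an unadjusted p under 0.05, beside 4.95% of all genes. Cd55 had 1.73 and Scn11a, a sodium channel of nociceptors, 1.39, while P2rx3 and Ret, defining genes of this class, had 0.03 and 0.02. The summed level of the list ran from 80914 to 100327 normalized counts in WT at 48 h and from 108563 to 149899 in HET, with no overlap, and no listed marker was under 1 in any sample. WT replicate 2 had the lowest sum of the 48 h cultures, 80914, and was also the lowest of them for each of the 4 genes.

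Markers of peptidergic nociceptors had 6 of 8 higher at 48 h in HET with a median of 0.45, and 9 pan-neuronal markers had a median of 0.08, none called by limma adjusted p in either list. With the replicate block, 4 peptidergic markers were called higher and 1 lower, and 1 pan-neuronal marker higher and 2 lower, beside 4.34% and 6.07% of all genes. Without HET replicate 3 the medians were 0.27 and 0.06. The other lists are given with the same background at 48 h, 4.34% of all genes called higher and 6.07% lower with the block, and 8.72% higher and 13.3% lower at the unadjusted level. The 9 macrophage markers were all lower in HET, with a median of −0.56 and summed levels of 2621 to 4084 in HET and 4270.1 to 6575 in WT, none called by limma adjusted p, 2 with an unadjusted p under 0.05 and 2 called with the replicate block, Cd68 (−1.04) and C1qc (−1.31). The 7 measured markers of neutrophils and red cells were all higher in HET, with a median of 1.61, summed levels of 129 to 1975 in HET and 85.6 to 139.98 in WT, of which none was called by limma adjusted p, 2 had an unadjusted p under 0.05 and 2, Ltf (2.70) and Alas2 (2.04), were called with the block. The highest of these sums, 1975, was HET replicate 3, the library that stood apart, and without it 5 of 7 were higher with a median of 0.28 and none with an unadjusted p under 0.05. Without it the macrophage markers were lower in 9 of 9, with a median of −0.43. Fibroblast and perineurial markers were lower in 7 of 10, with a median of −0.22, 3 lower at the unadjusted level and 2 called lower with the block, and without HET replicate 3 they were lower in 5 of 10 with a median of −0.08. Satellite glia and Schwann cell markers had a median of 0.03 over 12 genes, with 3 higher and 1 lower at the unadjusted level and 1 called lower with the block. A-fibre markers had a median of 0.05 over 11 genes, with 1 lower at the unadjusted level and 1 called lower with the block. Endothelial and pericyte markers had a median of −0.06 over 10 genes, with 1 higher at the unadjusted level and 0 called with the block. Without HET replicate 3 these 3 medians were 0.20, −0.0028 and −0.04. The part of these cell types in the 48 h difference of the 4 genes was not tested.

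**Figure D4:**
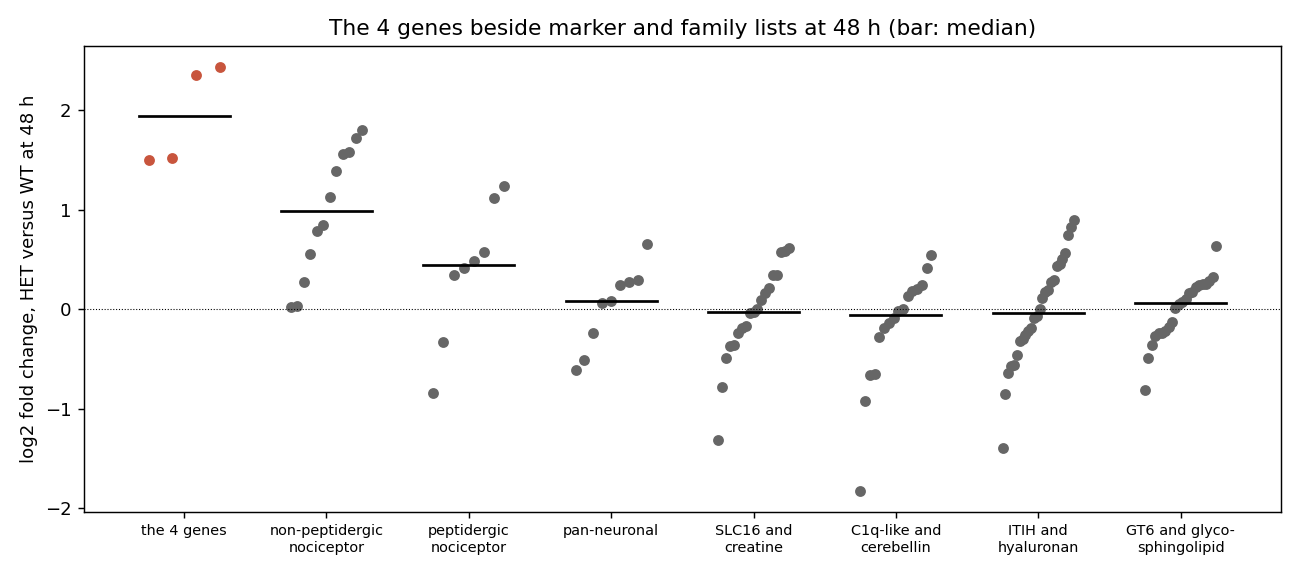
Log2 fold change of HET over WT at 48 h (y axis) for each gene of 8 sets: the 4 genes in red, and in grey the non-peptidergic, peptidergic and pan-neuronal marker lists and the 4 lists of relatives; black bars are medians. The red points lie between 1.5 and 2.44, the non-peptidergic list between 0.02 and 1.8 with a median of 0.99, and the lists of relatives have medians between −0.05 and 0.06.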

How the data were processed

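Total RNA of DRG neuron cultures was sequenced (18 samples, 6 groups of 3, grouped by the labels). The submitters' processing notes name CASAVA 1.8.2, edgeR and mm10; the aligner and counting are not given in the sources used here. Per the file headers, the authors deposited normalized counts (a signal), a second signal column per sample (plain adjusted values), FPKM, log2 fold changes, p-values, and a rank score that was not used. The plain adjusted values span 15 of 17 possible dimensions: 2 directions had been removed before deposit, so residual degrees of freedom are overstated.

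As these are not raw counts, limma 3.58.1 (R 4.3.3) was run on log2(normalized count + 1), which understates changes of low genes, over 17198 genes (minimum mean 1). The fit had 1 coefficient per group, an eBayes trend (12 residual degrees of freedom, 4.97 prior) and Benjamini-Hochberg adjustment at 0.05, and was tested on simulated data. The 4 genes, lists and tests were chosen with earlier results of these data known. Counts of lists from 12 to 24 h, the genotype-by-time difference, 2 of the block fits and the lists without HET replicate 3 at 48 h were added after the values were seen. Named genes are the 4, Dynlrb1, those at the edge of the ranking, the 3 most alike to each, paralogs, and up to 4 called genes of each list with the largest change; marker genes, Slc6a8, Emb, Ugcg, and list genes between 12 and 24 h were named after their values were seen.

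Same-numbered WT and HET samples' deviations from group means correlated at 0.188, 0.0318 and 0.158 at 12 h, 0.1085, −0.207 and 0.258 at 24 h, and 0.321, 0.209 and 0.461 at 48 h. All 3 exceed 0.1 at 48 h alone, so the blocked value is printed for 48 h, a reading made after both fits had been seen. Over all 9 pairs the numbers do not pair the samples. Positions are from GENCODE M21 (GRCm38, equal to mm10). P-values measure the spread between these cultures.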

Additional observations from a re-analysis of the deposited data

How the results depend on the processing

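Over 28 results for the 4 genes, 398 of 436 alternatives were unchanged, meaning the same direction and call where a test was made. The setting without a filter could not differ, because all 17198 genes had passed the filter. Between genotypes at 12 and 24 h none of the 4 was called in any setting, so unchanged there speaks of direction alone. The falls from 12 to 24 h chose the genes and have no call, so they were judged by direction and size. For HET over WT at 48 h, 10 of 17 alternatives were unchanged for Slc16a12 and Itih5 each. For C1ql4 and A3galt2 each, 13 of 17 were. HET was higher at 48 h in 68 of 68, but without overlap between genotypes, leaving out a culture or changing the pseudocount could not reverse that. Depth is unknown, so precision rests on 3 cultures a group. The 48 h call turned on the block: adjusted p was under 0.05 for the same log2 fold changes of 2.36 (Slc16a12), 1.52 (C1ql4), 1.5 (Itih5) and 2.44 (A3galt2) with the replicate block, with the block within each time, and with the block and only those groups. A mean of at least 50 did the same for Slc16a12 and Itih5. Genes called at 48 h were 0 in the main analysis, 1790, 2120 and 1723 under those 3 blocks, 264 with a mean of at least 50, and 1 each with pseudocount 5, the plain adjusted columns and the removed directions as covariates. Leaving out 1 culture gave 0 to 931 called genes there, with 1.69 to 2.82 for Slc16a12, 1.06 to 1.75 for C1ql4, 1.03 to 1.77 for Itih5 and 1.94 to 2.74 for A3galt2.

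From 24 to 48 h in HET, Slc16a12 kept 2.63 but lost its call with eBayes without a trend (limma adjusted p = 0.0564) and with only those 2 groups (limma adjusted p = 0.180). Genes called there were 429, against 21 and 0 in these fits, 2084 with the replicate block, 841 with the removed directions as covariates, and 0 to 2560 with 1 culture left out. Leave-one-out values were 2.35 to 2.91 for Slc16a12 and −0.23 to 0.36 for Itih5, which was −0.22 with the replicate block. In WT they were −0.82 to 0.31 for Slc16a12, which was 0.19 with the removed directions as covariates, and −0.911 to 0.0508 for C1ql4, with 2236 to 4485 called genes against 4772. At 24 h the leave-one-out range of HET over WT was −0.34 to 0.55 for C1ql4 and −0.65 to 0.54 for A3galt2, and genes called were 1, against 0 in eBayes without a trend, with either block, with the removed directions, with only those 2 groups, and 0 to 1 with a culture left out. At 12 h the count was 1, against 0 with a mean of at least 50, 2 with the plain adjusted columns, 17 with the block within each time and 0 to 2 with a culture left out. The cause of these shifts was not tested.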
